A study of Sus scrofa with 3 samples.

Results

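Box H/ACA small nucleolar RNAs (snoRNAs) and small Cajal body RNAs (scaRNAs) were described in 3 pig cultures of mesenchymal stem cells (MSC), which were isolated from fat of adult animals. The entries were chosen by name and type. A gene of the deposited table was a member if it was typed as a snoRNA with a name starting SNORA, or if it was typed as a scaRNA or had a name starting SCARNA. This gave 142 of the 30477 genes of the table, of which 115 were SNORA entries and 27 were scaRNA entries. The 142 entries carried 66 distinct names, counting 15 scaRNAs without a name as one. The labels put the 3 cultures in a single group, so no treatment, age or genotype could be compared. All 3 were grown in advanced MEM with human platelet lysate. The source animal of each culture is not named, so p-values measure the spread between these samples, which may be technical. The cultures are called 1, 2 and 3 after their labels.

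Box H/ACA RNAs fold into hairpins followed by a box H and a box ACA, and most of them pair with ribosomal RNA (rRNA) and guide the change of a uridine to pseudouridine in the nucleolus. A small number act in cutting the rRNA precursor rather than in modifying it. The scaRNAs are guides that carry a signal for the Cajal body, a nuclear body, where they direct the modification of spliceosomal small nuclear RNAs (snRNAs). In vertebrates most of these RNAs are cut out of introns of a host gene, many of whose products serve the ribosome or translation. All of the H/ACA guides are held by the same 4 core proteins, DKC1 (dyskerin, the pseudouridine synthase), NOP10, NHP2 and GAR1. Box C/D snoRNAs (SNORD names), which guide ribose methylation with a different set of proteins, served as the comparison class.

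The libraries held 51788677, 62248183 and 64774044 reads over genes in cultures 1, 2 and 3. The library of culture 1 stood apart. Protein-coding genes took 70.3% of its reads against 88.6% and 88.8% in cultures 2 and 3, and snoRNA and scaRNA entries of every class took 23.4% against 7.94% and 7.15%. Levels are in RPKM, where reads are divided by the length of the gene and the size of the library, so different genes are compared per length. A count of 0 over a gene of 134 bases, the median length of the members, leaves room for 3 reads, or 0.429, 0.357 and 0.343 RPKM in cultures 1, 2 and 3. These limits cover counting error only. All 8 MSC markers examined lay above 1 RPKM, and all 13 markers of blood, endothelial, epithelial, fat and red blood cells lay below it. The MSC markers summed to 1949.6, 3235 and 2448 RPKM and the others to 1.77, 0.964 and 0.432 RPKM.

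A level was called by limma's moderated test of log2(RPKM + 0.5) against 1 RPKM, with Benjamini-Hochberg adjustment over 29479 genes and a threshold of 0.05. Of the 142 members, 80 were above 1 RPKM, 43 were below, 4 were not decided and 15 had no read. Over all genes tested, 30.6% were called above and 60.8% below. The count above 1 RPKM was 81 to 82 when a culture was left out, but the count below was 28 without culture 1. The levels reached far up the scale, since 49 members had a mean of at least 100 RPKM and 13 of at least 1000 RPKM. The median over the members with a read was 4.13 on the log2 scale relative to 1 RPKM, and over all genes tested it was -1.27.

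Together the members held 2.71%, 0.60% and 0.67% of all reads of cultures 1, 2 and 3 (1.33% ± 1.20, SD, n = 3). The highest of these shares was 4.51 times the lowest, and without culture 1 it was 1.12 times. Most of these reads came from a few genes. The 4 entries of highest mean took 61.5%, 62.0% and 62.1% of the members' reads, a share that was close to the same in the 3 libraries although the sum was not. The 10 highest took 76.2%, 74.7% and 74.9%.

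**Figure D1:**
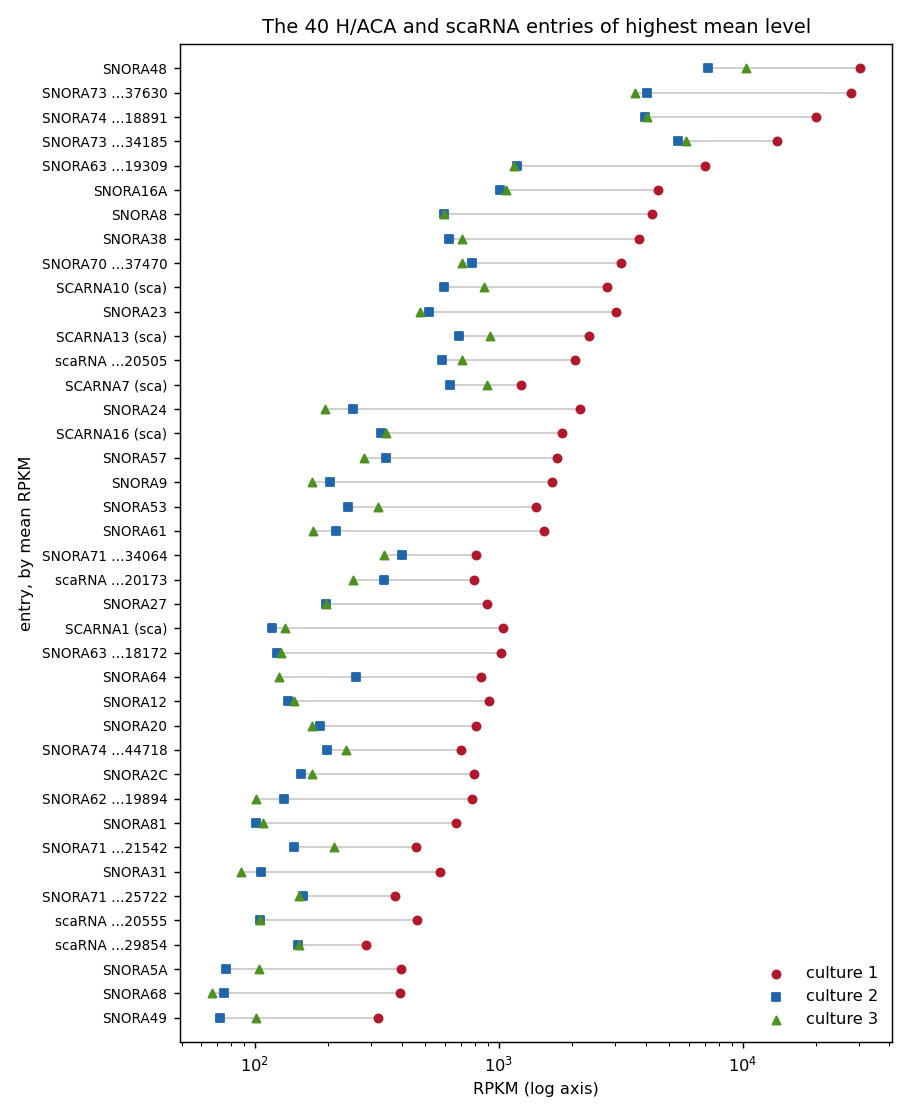
RPKM on a log axis for the 40 members of highest mean, 1 row per entry in order of mean, with 1 point per culture joined by a line; where entries share a name or have none, the last digits of the gene ID follow. The point of culture 1 is the highest in every row, and SNORA48 leads with 30300.5, 7182 and 10328 RPKM.

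Among the rRNA guides, SNORA48 was the highest member of all. In humans it directs pseudouridylation of the large subunit rRNA. It lies at chr12:52870367-52870501 on susScr11 inside EIF4A1, the gene of a translation initiation helicase, and stood at 30300.5, 7182 and 10328 RPKM (15937 ± 12538, SD, n = 3). It was above 1 RPKM in all 3 cultures (limma, adjusted p = 8.9e-20), with the level of culture 1 well over those of cultures 2 and 3.

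SNORA73, the RNA known as U17 in humans and snR30 in yeast, acts in cutting the rRNA precursor. It had 3 entries, and a pair of them on chromosome 6 were high. The entry at chr6:85534254-85534457 stood at 27741, 4066 and 3634 RPKM. Its neighbour at chr6:85535474-85535677 stood at 13825, 5427 and 5845 RPKM. Both lie in the same unnamed long non-coding RNA (lncRNA) gene, ENSSSCG00000041401, and their order turned over between libraries, as the first was 2.01 times the second in culture 1 but 0.749 and 0.622 times in cultures 2 and 3. The third SNORA73 entry had a mean of 0.065 RPKM. These genes are closely alike in humans, and how the authors placed reads that match both is not stated, so the split between the pair is uncertain.

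SNORA74, a large subunit guide in humans, was the other member of the leading 4. Its entry at chr2:141183235-141183434 inside MATR3, the gene of a nuclear matrix protein, stood at 19944, 3959 and 4045 RPKM. A second entry inside TIMM23, named after its values were seen, stood at 703, 197 and 237 RPKM. In both entries culture 1 was highest and cultures 2 and 3 lay close to each other.

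Several further guides of the large subunit rRNA were above 1000 RPKM in culture 1. SNORA63 at chr13:124586670-124586800 inside EIF4A2, the paralogue of EIF4A1, stood at 7015, 1191 and 1151 RPKM. SNORA16A stood at 4499, 1007 and 1074 RPKM. SNORA8 inside TAF1D, which encodes a subunit of an RNA polymerase I factor, stood at 4249, 595 and 598 RPKM. In each the value of culture 1 was the outlying one and the others lay side by side. SNORA23 inside IPO7, an importin gene, showed the same with 3018, 516 and 476 RPKM. SNORA64 inside RPS2 stayed below 1000 RPKM and was one of the few whose values in cultures 2 and 3 were apart, at 842, 259.9 and 126 RPKM.

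Guides of the small subunit rRNA in humans included SNORA24 at 2156, 251 and 194 RPKM and SNORA57 at 1733, 346 and 280.5 RPKM. SNORA57 lies inside CSKMT, a gene of a mitochondrial methyltransferase. The remaining SNORA entries among the 20 highest were SNORA9, SNORA53, SNORA61, SNORA27, SNORA12, SNORA38, 1 SNORA71 entry, the highest SNORA70 entry and another SNORA63 entry. SNORA38 inside PRRC2A stood at 3759, 625 and 707 RPKM, and SNORA70 is described below. The means of the others ran from 398 to 677 RPKM.

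Most of the scaRNA entries were expressed. Of 27, 19 were above 1 RPKM and 8 below, and all 12 of those with a SCARNA name were above. SCARNA10, known as U85, which carries both a box C/D and a box H/ACA part and modifies U5 snRNA in humans, lies at chr5:64155664-64155992 inside NCAPD2 and stood at 2781, 596 and 867 RPKM. SCARNA13 at chr7:116785959-116786234 stood at 2348, 686 and 918 RPKM. An unnamed scaRNA inside ATG16L1, ENSSSCG00000020505, was the third highest at 2049, 583 and 708 RPKM. For these, as for SNORA48, culture 1 was highest and culture 3 lay above culture 2.

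SCARNA7, a methylation guide of the box C/D kind that is known as U90 in humans, had one of the narrower ranges among the high members. It stood at 1228, 634 and 896 RPKM. SCARNA16 stood at 1824, 330.0 and 344 RPKM, and its gene overlaps the microRNA entry ssc-mir-6516, which was listed with 16551, 3613 and 3855 reads against 17850, 3882 and 4217 for SCARNA16. The reads of the overlapping entries cannot be told apart. SCARNA1, a pseudouridylation guide of U2 snRNA in humans, stood at 1039, 118 and 133 RPKM. SCARNA2, which in humans is transcribed from its own promoter rather than from an intron, lies at chr4:110963742-110964151. It stood at 118, 14.0 and 49.7 RPKM and was the sole member above 1 RPKM without any host gene in the table or in the RefSeq table.

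The other named scaRNAs were low. SCARNA3, SCARNA8, SCARNA11, SCARNA14, SCARNA15 and SCARNA18 had means between 4.0 and 26.8 RPKM. SCARNA15, which guides U2 snRNA in humans, was the most even of them with 4.37, 4.02 and 3.62 RPKM, from 29, 32 and 30 reads. It overlaps the microRNA entry ssc-mir-1839, which was listed with 22, 25 and 20 reads. The weakest call among the 12 was that of SCARNA14 at 10.6, 3.17 and 1.46 RPKM (limma, adjusted p = 0.0124), and it was lost at adjusted p = 0.0881 when the pseudocount was 1 RPKM and at adjusted p = 0.0803 when libraries were scaled to protein-coding reads.

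Of the 15 scaRNAs without a name, 7 were above 1 RPKM, all of them inside a host gene. Besides the one in ATG16L1 they lie in NSD2 (mean 459.6 RPKM), BUD23 (224 RPKM), CHD3 (195 RPKM), KHDC4 (77.9 RPKM) and, as a pair, ACAA2 (83.7 and 19.6 RPKM). The 8 others had means of at most 0.514 RPKM and at most 8 reads in a library.

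Copies of a name differed widely in level. SNORA70 had 44 entries, more than any other member name, and a single one of them held nearly all of its reads. The copy at chrX:124929155-124929289 inside RPL10, a ribosomal protein gene, stood at 3158, 777 and 705 RPKM from 22240, 6576 and 6209 reads. The other 43 entries together had 113, 111 and 70 reads in cultures 1, 2 and 3. Of the 44, 3 were above 1 RPKM, 28 below, 2 not decided and 11 without a read. The 2 further entries above 1 RPKM, named after their values were seen, lie in TTC21B, at 8.87, 1.31 and 1.83 RPKM, and in RNF114, at 2.13, 4.68 and 2.67 RPKM. The entry in TTC21B was no longer called without culture 1, with a pseudocount of 1 RPKM or after scaling to protein-coding reads (limma, adjusted p = 0.0759, 0.159 and 0.147). Without SNORA70, 58 of the remaining 71 SNORA entries were above 1 RPKM and 7 below.

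The other names with several entries showed a mix. All 4 SNORA63 entries were above 1 RPKM, with means from 30.4 to 3119 RPKM. Of 5 SNORA71 entries 4 were above, of 6 SNORA72 entries 1, and of 4 SNORA62 entries 2. Both SNORA50A entries share one locus inside CNOT1 and were listed with the same 1794, 302 and 295 reads, so they repeat one RNA. Reads that fit several copies of a name cannot be placed with certainty.

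**Figure D2:**
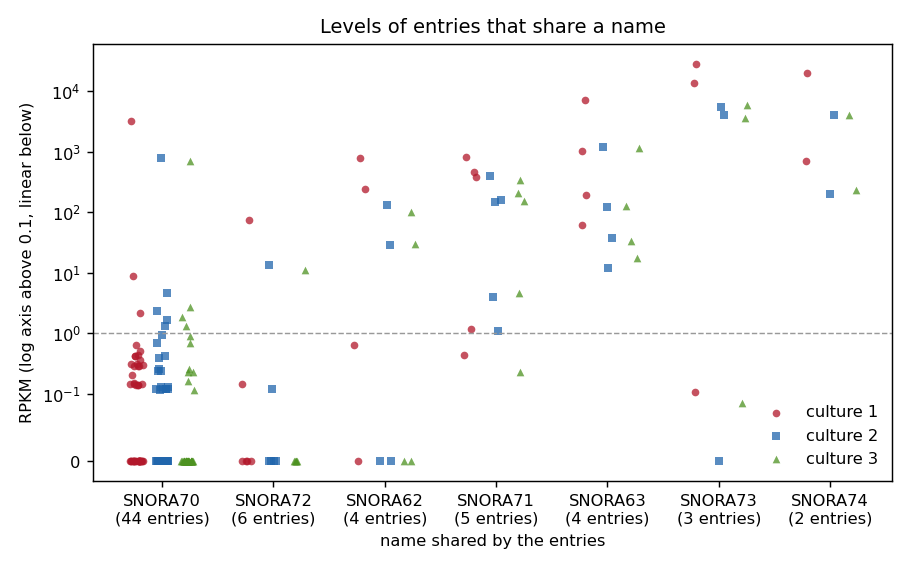
RPKM of each entry for 7 names with several entries, on an axis that is logarithmic above 0.1 and linear below, with 1 point per entry and culture. The dashed line marks 1 RPKM. SNORA70 has a single entry with a mean of 1546 RPKM and 43 with means of at most 4.0 RPKM, whereas all 4 SNORA63 entries lie well above 1 RPKM.

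All 72 members averaging 10 RPKM or more were highest in culture 1, which also weighs most in that average. Below that level this did not hold throughout, since the lower SNORA71 entry described with its host and the SNORA70 entry in RNF114 were lowest in culture 1. The ratios that follow are those of the 72. The ratio of culture 1 to culture 2 had a median of 5.03 and ran from 1.07 to 16.1. The ratio of culture 1 to culture 3 had a median of 4.48 (1.37 to 11.1). Between cultures 2 and 3 the median ratio was 0.994, and it ran from 0.234 in SNORA35B to 2.07 in SNORA64. All 72 were also highest in culture 1 with median-of-ratios scaling (median ratios 5.94 and 3.84 over cultures 2 and 3) and with scaling to protein-coding reads (6.33 and 5.66). In bulk RNA, fewer cells of a type and less RNA per cell cannot be told apart.

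No member's spread passed the adjusted threshold in a test of the variance between cultures against limma's trended prior variance (0 of 83 members averaging 1 RPKM or more, smallest adjusted p = 0.612). Neither did any other gene, with 0% of 10474 called. At an unadjusted p under 0.05 the test named 45 of the 83 (54.2%), against 5.93% of all 10474 genes. Without culture 3, 13 members passed the adjusted threshold, and 7 did when every gene with a read entered the fit. These members share the libraries, so their agreement is that of 3 samples and not of 72.

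Other RNA classes of the same libraries did not all have ratios of this size. Among genes averaging 10 RPKM or more, the median ratio of culture 1 to culture 2 was 5.10 for SNORA entries, 3.95 for scaRNAs and 4.93 for snRNA genes. It was 1.41 for box C/D entries and 0.823 for protein-coding genes. Against culture 3 the medians were 4.80, 3.01, 3.83, 1.90 and 0.929 in the same order. The average includes culture 1, so a gene high in culture 1 alone can pass this filter through it. Of 1077 snRNA entries 39 passed. Summed over the class, box C/D entries took 0.965%, 0.245% and 0.287% of the reads of cultures 1, 2 and 3. Their summed share was thus also highest in culture 1. These are the 156 entries with a SNORD name, and 258 snoRNA entries had no name. The 581 snoRNA and scaRNA entries of every class took 23.4%, 7.94% and 7.15% of the reads. Most of those reads thus lay outside both the members and the SNORD entries, and the comparison with box C/D covers named entries only. For snoRNA and scaRNA entries of every class the median ratios were 2.84 over culture 2 and 2.84 over culture 3. Of the box C/D entries averaging 1 RPKM or more, 11 of 122 (9.02%) passed the unadjusted threshold of the spread test. Among snRNA entries 42 of 120 (35%) passed it, and among microRNA entries 21 of 111 (18.9%). The difference between classes was not given a test, since the classes share the libraries. A usual box C/D entry is also shorter, with a median length of 79 bases. Within the members, the 9 longest had median ratios of 3.56 over culture 2 and 2.90 over culture 3, and the other 63 had 5.09 and 4.62. Spearman's rho of length and ratio over all 72, which share the libraries, was 0.12 and -0.02. The part of length in the difference between classes was not tested.

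**Figure D3:**
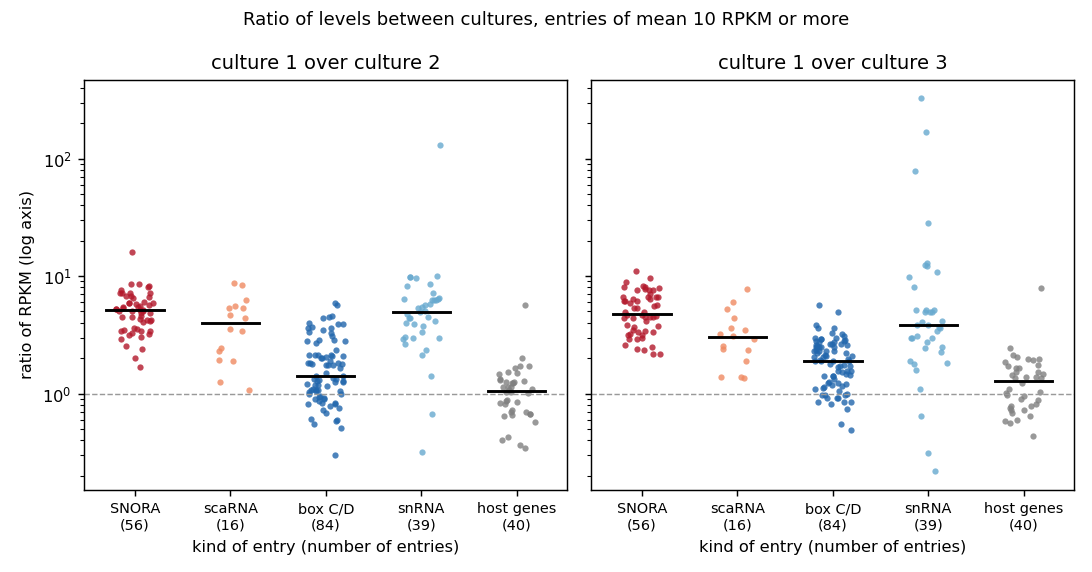
Ratio of culture 1 to culture 2 (left) and to culture 3 (right), on a log axis, for SNORA, scaRNA, box C/D and snRNA entries and for the members' host genes, all averaging 10 RPKM or more, with 1 point per gene and a bar at the median. The SNORA and scaRNA points lie above 1, drawn as a dashed line, in both panels, and the 40 host genes centre on 1.06 and 1.29.

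The members with the widest and the narrowest range are named here from the 72. SNORA35B, inside LRCH2, had the widest, with 57.3, 3.56 and 15.2 RPKM, and its level was not decided (limma, adjusted p = 0.0731). SNORA24, SNORA9, SNORA61 and SCARNA1 followed. SNORA9 stood at 1656, 204 and 171 RPKM, and the lncRNA gene around it, ENSSSCG00000045735, had the same order of cultures with 45.8, 8.15 and 5.83 RPKM. SNORA61 stood at 1528, 214 and 173 RPKM.

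The narrowest range belonged to the unnamed scaRNA pair inside ACAA2, a gene of mitochondrial fatty acid oxidation. ENSSSCG00000020491 stood at 99.8, 79.4 and 71.9 RPKM. ENSSSCG00000020045 stood at 22.2, 20.8 and 16.0 RPKM. In both, the cultures were nearly level. The smallest RefSeq gene around ENSSSCG00000020491 is the lncRNA gene LOC102158467 rather than ACAA2, so its host is uncertain. The unnamed scaRNA in CHD3, a chromatin remodeller gene, followed at 285, 149.9 and 151 RPKM, then SCARNA7 and the SNORA71 entry at 806, 401 and 337 RPKM.

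Host genes were found by coordinates, as the smallest protein-coding or lncRNA gene of the table that contains the member. Strand was not used, so a gene around a member need not be its source. Of the 142 members 110 had one. Among the 80 members above 1 RPKM, 72 lay in a host, in 63 cases protein-coding and in 9 a lncRNA, and the 72 fell in 58 distinct genes. Another 7 lay in a gene of the RefSeq table alone, which was used for names and neighbours and not for levels. SNORA16A, SNORA61 and SNORA44 were among these. They lie close together on chromosome 6 in the RefSeq lncRNA gene LOC100622481, and their human counterparts share the lncRNA SNHG12. SNORA44, named after its values were seen, stood at 243, 50.3 and 44.1 RPKM and was the lowest of these 3 in each culture.

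The level of a member was set against that of its host as a log2 difference per culture, tested by limma over 1232 pairs of a small RNA and its host. Of the 110 members with a host, 38 were above it, 29 below and 43 not decided. Over all 1232 pairs, 11.0% were above and 50.0% below. For box C/D entries 19 of 123 were above their host and 64 below. The 38 members above their host were higher than it in each of the 3 cultures, by 5.17 to 1131 times as a ratio of means with a median of 33.1. The count above was 32 without culture 3, and 39 without culture 1 and without culture 2. These are ratios of read density. Whether short RNAs and host mRNAs entered the libraries equally well was not tested.

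The largest differences were those of the SNORA73 pair. Their host ENSSSCG00000041401 stood at 12.3, 12 and 7.08 RPKM, so they were above it by 9.45 ± 0.67 and 9.48 ± 0.49 on the log2 scale (SE, n = 3; limma, adjusted p = 0.000212 and 0.000106). SCARNA13 followed in a lncRNA gene at 1.70 ± 0.234 RPKM, with 9.02 ± 0.47. SNORA57 came next against CSKMT at 1.08 ± 0.545 RPKM, with 8.51 ± 0.62. SCARNA10 was above NCAPD2, a condensin gene at 4.63 ± 3.21 RPKM, by 7.95 ± 0.75. These pairs were picked for the size of the difference, which favours hosts of low level.

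At the other end stood SNORA21 in RPL23, a ribosomal protein gene at 819 ± 107 RPKM. SNORA21 stood at 48.8, 14.8 and 22.3 RPKM, and its log2 difference was -4.98 ± 0.47 (SE, n = 3; limma, adjusted p = 0.000472). The rest of the 5 lowest were copies of SNORA72 and SNORA70 with few or no reads. A wider look, made after the values were seen, found the same for SNORA31 in TPT1, at 576, 105 and 87.4 RPKM against 1229.9 ± 259 RPKM for the host. Without culture 3 its adjusted p was 0.14 (limma).

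Sorted by what the host encodes, the 11 members above 1 RPKM in ribosomal protein genes had none above the host and 6 below, with a median ratio of means of 0.410. The 8 in translation factor genes had 2 above and 3 below, with a median of 1.15. The other 53 had 34 above and 5 below, with a median of 13.1. The classes were not tested against each other. The ratio has the host's level in its denominator. Across the 72 members above 1 RPKM with a host, the levels of member and host were weakly related on the log2 scale (Pearson's r = 0.21, Spearman's rho = 0.17, across genes of the same libraries, which are not independent replicates).

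**Figure D4:**
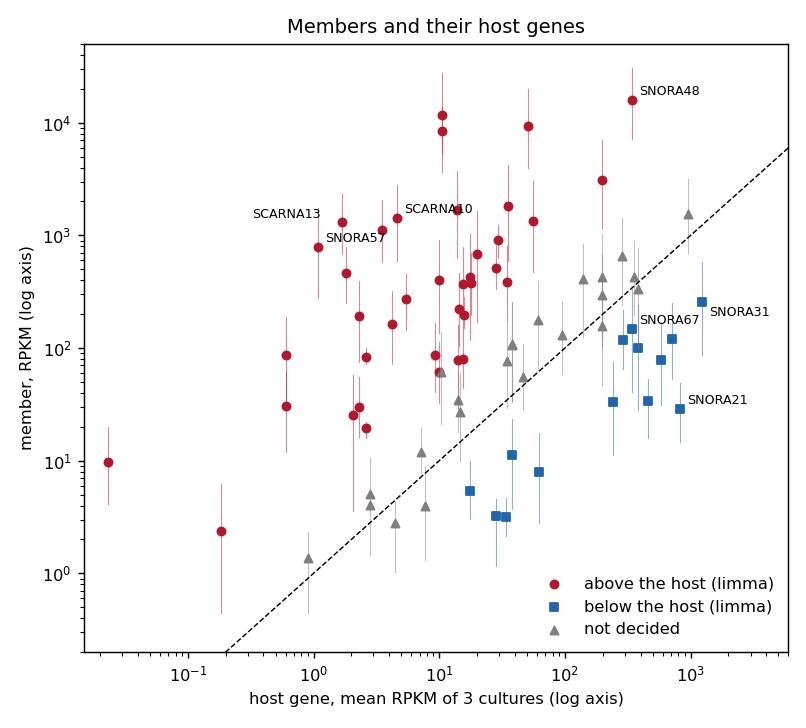
Mean RPKM of each of the 75 members that averaged 1 RPKM or more and had a host, against that of its host gene, both on log axes. Vertical lines span the 3 cultures of the member, the dashed line marks equal levels, and colours and shapes give limma's call (38 above, 14 below, 23 not decided).

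The ratios of the host genes centred near 1. For the 56 distinct hosts averaging 1 RPKM or more the median ratio was 0.876 for culture 1 over 2 and 1.06 for culture 1 over 3. EIF4A2, for example, stood at 104, 243 and 239 RPKM, lowest in the culture where its 4 members were highest. EIF4A1 stood at 475, 310.4 and 244 RPKM, highest in culture 1 like SNORA48 but by a smaller ratio. Reads of unspliced host RNA across a member's gene would also be counted for the member, and their part in the values was not tested.

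Members inside the same host gene differed in level by up to 689 times. A host with 2 or more members averaging at least 1 RPKM was found 12 times, with 26 members. Setting the highest member of each host against the others gave 14 pairs, and in 13 of them the same entry was higher in all 3 cultures. The exception was the SNORA73 pair described above. One of the 13 is the doubly listed SNORA50A locus, where the ratio of 1.01 comes from gene length alone.

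In EIF4A1, SNORA48 was 90.0, 115 and 252 times as high as SNORA67, a small subunit guide in humans at 336, 62.6 and 41.0 RPKM. In EIF4A2, the highest SNORA63 entry was 6.89, 9.71 and 8.98 times the other SNORA63 entry, 10.5, 11.8 and 10.7 times SNORA81 and 18.7, 24.3 and 24.6 times SNORA4. The ratios within this host thus held their order and nearly their size in the 3 libraries. The widest gap was in the unnamed protein-coding gene ENSSSCG00000041731. One SNORA71 entry in it stood at 806, 401 and 337 RPKM. The other stood at 1.17, 4.02 and 4.56 RPKM, from 8, 33 and 39 reads. Both entries carry one name, so the low value may depend on where any shared reads were placed, which was not tested.

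The remaining hosts with several members were KANSL2, TCP1, KHDC4, TBRG4, RPSA, ACAA2 and the lncRNA gene ENSSSCG00000043503. Their ratios lay between 1.64 and 7.13 in each culture. In TCP1, a chaperonin subunit gene at 34.6 ± 5.58 RPKM, SNORA20 was 4.77, 6.22 and 5.53 times as high as SNORA29. In KANSL2, a gene of a histone acetylation complex, SNORA2C was 5.30, 3.54 and 3.63 times as high as SNORA2B.

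**Figure D5:**
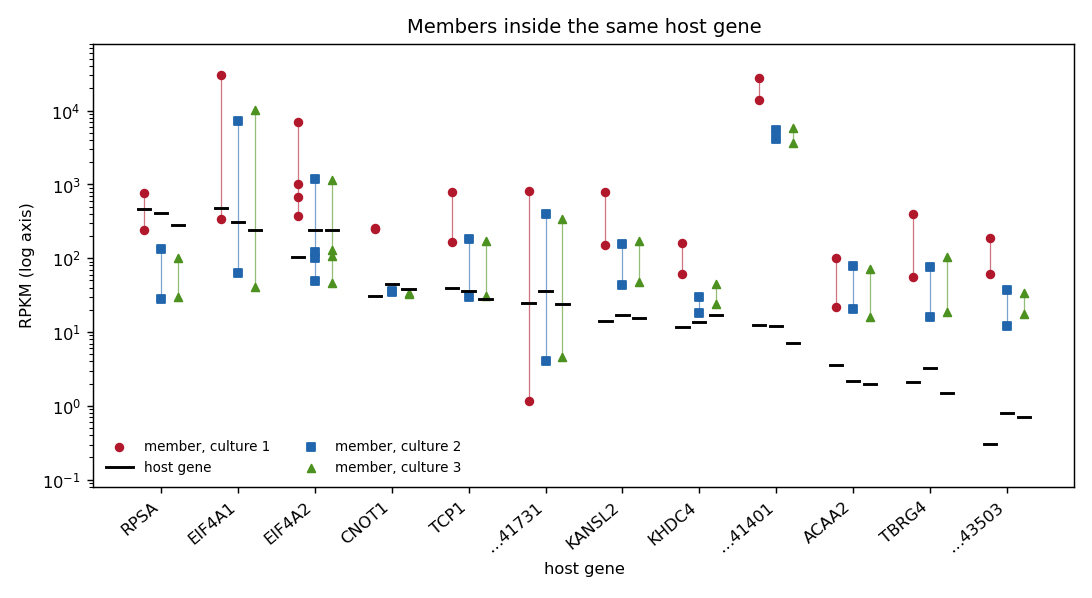
RPKM on a log axis of the members inside each of the 12 hosts with several members, by culture, with a line joining the members of a host in a culture and a black bar at the host's own level; hosts without a name are given by the last digits of their ID. The gap between members is widest in the host of the SNORA71 pair, from 73.8 to 689 times, and members lie far above the bar in the host of the SNORA73 pair.

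The genes of the proteins that carry these RNAs were measured as mRNA. Of 27 genes on lists for the H/ACA core, assembly, the Cajal body, RNA end and cap formation and telomerase, 23 were matched by symbol, of which 20 were above 1 RPKM, 1 below and 2 not decided. The background of all genes tested above 1 RPKM is the 30.6% given above. Of the 20288 protein-coding genes, the kind these lists hold, 8372 were above 1 RPKM. At a level of 5 RPKM in place of 1, 8 were called above. NHP2, SMN1, TENT4B and TERC were not analysed here.

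Of the core proteins, DKC1 stood at 7.52, 12.1 and 6.28 RPKM and GAR1 at 5.31, 9.93 and 5.84 RPKM. NOP10 was higher, at 66.6, 24.9 and 25 RPKM. The first 2 were highest in culture 2, and NOP10 in culture 1.

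In assembly, NAF1, which holds the place of GAR1 in the precursor particle, was low at 1.74, 1.99 and 1.59 RPKM, and its call above 1 RPKM was lost without culture 2 and without culture 3 (limma, adjusted p = 0.155 and 0.0883). SHQ1, the chaperone of dyskerin, stood at 2.76, 4.93 and 4.51 RPKM. The helicase RUVBL1 stood at 22.1, 42.8 and 22.2 RPKM and its partner RUVBL2 at 1.84, 3.10 and 2.0 RPKM, the latter lost without culture 2 (adjusted p = 0.0612). NOLC1, a nucleolar and Cajal body chaperone, stood at 24.1 ± 9.69 RPKM (SD, n = 3). NUFIP1, ZNHIT6 and PIH1D1, of the assembly complex known best for box C/D RNAs, had means of 3.34, 4.68 and 7.61 RPKM, and ZNHIT3 was not decided at 1.45 RPKM (adjusted p = 0.164). Each of the 9 assembly genes was highest in culture 2.

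For the Cajal body, COIL, which encodes its scaffold coilin, stood at 3.97, 6.07 and 5.10 RPKM. WRAP53, which carries scaRNAs to the Cajal body, was not decided at 1.14, 2.22 and 1.61 RPKM (adjusted p = 0.0655). GEMIN2 had a mean of 11.9 RPKM, and SNAPC1, ICE1 and USPL1, which act in snRNA transcription, had means of 5.74, 2.92 and 3.80 RPKM. For end and cap formation, the deadenylase PARN stood at 8.37, 9.0 and 8.15 RPKM and the nuclear exosome ribonuclease EXOSC10 at 8.44, 11.1 and 7.49 RPKM. The cap methyltransferase TGS1 had a mean of 5.93 RPKM and the deadenylase TOE1 of 2.11 RPKM, the call of TOE1 being lost without culture 2 (adjusted p = 0.177). TERT, the reverse transcriptase of telomerase, whose RNA ends in an H/ACA domain, was below 1 RPKM with a mean of 0.0279 RPKM. The 4 core proteins of box C/D particles, FBL, NOP56, NOP58 and SNU13, had means of 20.4, 52.3, 8.6 and 64.6 RPKM.

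The class as a whole was set against box C/D entries by the median log2(RPKM + 0.5) over all entries of each class. Box C/D entries were again only those with a SNORD name. The H/ACA and scaRNA median minus the box C/D median was 0.55, -1.28 and -0.42 in cultures 1, 2 and 3 (mean -0.38 ± 0.92, SD, n = 3), and was not distinguishable from 0 (exact sign-flip permutation test, two-sided, p = 0.75). With 3 libraries the smallest p this test can give is 0.25. Over the entries averaging 1 RPKM or more in each class the difference was 3.63, 1.81 and 2.01 (2.48 ± 1.0, SD, exact p = 0.25). In cultures 2 and 3, but not in culture 1, the order of the medians turned with this choice of entries. Without culture 2 the first difference was 0.065. The median over all entries counts 44 SNORA70 entries, 43 of them with means of at most 4.0 RPKM. The SNORA medians were 3.37, 2.02 and 1.88 with SNORA70 and 7.985, 5.63 and 5.56 without it in cultures 1, 2 and 3. The box C/D medians, with no entry left out, were 3.87, 3.69 and 3.39. The scaRNA median was above that of box C/D in culture 1 and below it in cultures 2 and 3. The difference without SNORA70 was not tested.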

How the data were processed

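Total RNA of 3 cultures was made into TruSeq V2 libraries, per the labels' protocols. The authors deposited 1 table of RPKM for 30477 Ensembl genes with coordinates on susScr11, the build named in the submitters' processing notes. The sources used here do not give the aligner, counting tool, strand or treatment of reads that match several genes. RPKM times length gave whole reads for 100% of values, within 1e-06 of a read. The members and gene lists were chosen with earlier results of these data known.

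Tests were run in limma (version 3.58.1, R 4.3.3). The scale was log2(RPKM + 0.5), so differences of low genes come out too small. Variances were trended and robust, over all genes with a read (levels), genes averaging 1 RPKM or more (spread, F test with 2 residual degrees of freedom) or all small RNA and host pairs. Adjusted p-values are Benjamini-Hochberg values with a threshold of 0.05. The tests of level, spread and host difference were tried on simulated data, and the sign-flip test was not. Named entries are every scaRNA, the 20 highest SNORA entries, entries sharing a host, the 5 widest and 5 narrowest ranges, the 5 highest and 5 lowest against the host, their hosts, and the protein lists. Any other was chosen after its values were seen. Of 14012 genes without a deposited name, members kept their Ensembl ID. Alternatives were other pseudocounts, scalings, filters and levels, voom weights on the recovered reads, 1 entry per locus, and leaving out each culture. Figures and tables were made with Python 3.11.15, pandas 2.3.3 and matplotlib 3.10.9.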

Additional observations from a re-analysis of the deposited data

How the results depend on the processing

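No single member's level call or host difference reversed direction in any alternative run. The count of members above 1 RPKM was 77 to 82 in all alternatives at 1 RPKM, and 81 to 82 with a culture left out. The count below, 43 of 142, was 28 to 39 with a culture left out, and 5 when genes needed at least 10 reads in all, a filter that removes most low copies by construction. Members of large spread numbered 0, but 0 to 13 with a culture left out (13 without culture 3), and 7 when every gene with a read entered the fit; the cause was not tested. Members above their host were 38, and 32 to 39 with a culture left out; without culture 3, 18 of the 38 calls above and 29 below the host were lost. H/ACA protein genes above 1 RPKM were 20, 17 to 21 with a culture left out and 8 at a level of 5 RPKM. The highest read share of the members was 4.51 times the lowest, 1.12 to 4.51 times with a culture left out, and 1.12 without culture 1. The H/ACA minus box C/D median, -0.38, was 2.48 over entries with a mean of at least 1 RPKM and -0.85 to 0.065 with a culture left out (0.065 without culture 2). Median-of-ratios size factors moved the median of all genes by -0.03, -0.27 and 0.20 on the log2 scale in cultures 1, 2 and 3, and scaling to protein-coding reads by 0.23, -0.10 and -0.10. No paired analysis was possible because the labels give a single group.

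Depth limits the low copies: 1 RPKM over 134 bases is 6.99, 8.4 and 8.74 reads in cultures 1, 2 and 3. Near-identical copies, overlapping genes and unspliced host RNA may share reads with the members, and without a stated strand or rule for reads that match several places their parts cannot be told apart. With 3 libraries of 1 group, what sets culture 1 apart cannot be told from these data.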

Other observations

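The table types 258 further genes as snoRNA without giving a name. For 7 of them, a table that pairs gene IDs with symbols gives an H/ACA or scaRNA name, so they fall outside the rule by which the members were chosen. They are SNORA3A, SNORA31B, SNORA46, SNORA69, SCARNA12, SNORA51 and SNORA25. All 7 were above 1 RPKM (limma, adjusted threshold 0.05), with means from 10.5 to 2072 RPKM. SNORA3A was the highest at 4425, 866 and 924 RPKM in cultures 1, 2 and 3. SNORA31B lies in TPT1, like SNORA31, and stood at 1821, 391 and 360.5 RPKM. SNORA51 lies in NOP56, the gene of a box C/D core protein, and stood at 55.9, 29.5 and 22.5 RPKM.

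All 7 were highest in culture 1, as were all 72 members averaging 10 RPKM or more. Their ratios ran from 1.61 to 5.99 for culture 1 over 2 and from 1.68 to 6.17 for culture 1 over 3. Against their host genes 3 were above, SNORA3A, SNORA46 in CNOT1 and SCARNA12 in PHB2, while SNORA69 in the ribosomal protein gene RPL39 and SNORA25 in TAF1D were below.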
